A study of Mus musculus with 7 samples.

Results

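The genes of 10 helper cytokines, Il21, Ifng, Il2, Il4, Il10, Il17a, Csf2, Tnf, Areg and Tgfb1, were examined together with the chromosome around them, in a list of regions where chromatin was more accessible after blockade of the type I interferon receptor. Every region ("peak") was taken whose gene name in the list was one of the 10, or that lay within 250 kb of the body of one of them (mm10). This gave 36 of the 6395 listed peaks, and 2 of them lay within 250 kb of both Il21 and Il2. The list came from ATAC-seq, an assay that reads where a transposase can reach the DNA, on T follicular helper (Tfh) cells. Splenic CXCR5hi PD-1hi cells were sorted among CD4+CD44+ cells that were GITR- and PSGL-1lo, from mice of the B6.Sle1.Yaa strain aged 5 months. Both groups carried the Sle1 and Yaa alleles, which make this strain prone to lupus-like disease, so that no sample analysed here is from a healthy strain. Mice had received anti-IFNAR1 (written anti-IFNA1 in the treatment label, 4 samples) or control anti-rat IgG (3 samples), 2 times a week for 4 weeks. The labels do not say whether a sample is 1 mouse or a pool.

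Helper T cells act on other cells through secreted cytokines. IL-21 and IL-4 are the main signals that Tfh cells give to B cells in germinal centres, and interferon gamma is the signature product of Th1 cells that some Tfh cells also make, including in lupus. Many cytokine genes, though not all, are kept closed in naive T cells and open at promoters, introns and distant enhancers as the cells differentiate. Accessible sites around a cytokine gene can thus belong to its regulation, while others belong to its neighbours.

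The list holds 1 pooled comparison and each value in it is the authors' own. The pileup is the number of anti-IFNAR1 fragments at the summit of a peak, scaled down to the depth of the control side, and the fold is (pileup + 1) over (control background + 1), so that added 1 on both sides pulls low values towards each other. All listed peaks were higher on the anti-IFNAR1 side at a q of at most 0.0496, and peaks lower on that side were not analysed here. Before scaling, the anti-IFNAR1 side was 3.54 times as deep as the control side, the depth of single samples is unknown, and no value has a spread between mice. Of the markers checked, 5 of 7 Tfh genes had a listed peak by name (Cd3e, Cd4, Pdcd1, Bcl6 and Tcf7, not Cxcr5 or Icos). So had 0 of 6 B cell, 0 of 6 CD8 T and NK cell and 2 of 6 myeloid genes (Cd14 and Cebpa). The share over all protein-coding genes was 21.1%, from which lists of 6 genes cannot be set apart. Within 5 kb of the gene body the counts were 7 of 7, 1 of 6 (Cd79a), 0 of 6 and 2 of 6, against 29.1%. A listed peak marks a difference between the groups, so these counts do not measure the purity of the sort.

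Of the 9 members with a tabulated promoter, 2 had a listed peak on it (250 bases before to 50 after the RefSeq start), Il21 and Areg. Over all protein-coding genes with such a window the share was 18.7%, which 2 of 9 does not set the members apart from. The 250 bases upstream of the start of these 2 genes are printed here with those of Ifng and Il2, whose promoters no listed peak touched, so that the regions under and outside the peaks can be compared. The sequences are from RefSeq (GRCm38.p6, the same build as mm10), on the strand of the gene, and capitals mark matches to the motifs named after them.
Il21 (chr3:37232637-37232886, minus strand): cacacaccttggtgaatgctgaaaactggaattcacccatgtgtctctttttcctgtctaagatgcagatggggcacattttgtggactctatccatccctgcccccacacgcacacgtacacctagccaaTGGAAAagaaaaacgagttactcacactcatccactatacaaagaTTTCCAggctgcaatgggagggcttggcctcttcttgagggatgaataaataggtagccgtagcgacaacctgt
Areg (chr5:91139349-91139598, plus strand): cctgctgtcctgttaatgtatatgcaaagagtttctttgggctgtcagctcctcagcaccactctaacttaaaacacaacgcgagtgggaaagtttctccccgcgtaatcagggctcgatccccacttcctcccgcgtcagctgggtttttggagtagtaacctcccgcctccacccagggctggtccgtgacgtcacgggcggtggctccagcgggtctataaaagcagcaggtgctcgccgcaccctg
Ifng (chr10:118440796-118441045, plus strand): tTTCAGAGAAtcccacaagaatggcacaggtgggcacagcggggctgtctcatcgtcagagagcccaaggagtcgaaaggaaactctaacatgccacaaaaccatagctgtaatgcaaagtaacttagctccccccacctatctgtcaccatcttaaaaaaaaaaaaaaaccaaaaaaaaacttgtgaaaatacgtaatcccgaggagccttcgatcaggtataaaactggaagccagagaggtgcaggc
Il2 (chr3:37125955-37126204, minus strand): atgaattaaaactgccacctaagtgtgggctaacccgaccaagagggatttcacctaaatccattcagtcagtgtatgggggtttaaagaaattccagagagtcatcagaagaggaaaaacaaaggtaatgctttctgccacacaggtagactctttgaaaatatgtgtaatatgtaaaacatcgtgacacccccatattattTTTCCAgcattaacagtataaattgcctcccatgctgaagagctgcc

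The peaks at Il21 and Areg covered all 250 of these bases. Letters were searched on both strands for 6 motifs: AP-1 (TGANTCA), STAT (TTCNNNGAA), NFAT (TGGAAA), IRF (GAAA, 2 further bases and GAAA), T-box (GGTGTGA) and RUNX (TGTGGT). The Il21 sequence held NFAT letters at 2 places, from 119 to 114 and from 74 to 69 bases before the start. Il2 held them at 1 place, from 47 to 42 bases before the start. NFAT letters stood in 17.0% of all 21263 promoters of this length and in 12.9% of the 3732 whose 300-base window met a listed peak, so such letters are common. Ifng held STAT letters from 249 to 241 bases before the start (6.58% of all promoters), and Areg held none of the 6. In the promoters not printed, the promoter at the outer of the 2 starts of Il4 held NFAT letters at 2 places and IRF letters that overlap 1 of these, and Il17a held AP-1 letters (6.13% of all promoters) and RUNX letters (12.4%). Csf2 and Tnf each held NFAT letters at 1 place, and Tgfb1 and the inner Il4 promoter held none of the 6. A match is a description of the letters and says nothing of binding.

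The cytokine promoters were mostly poorer in G and C than promoters under listed peaks, whose median was 62.8% against 55.6% over all promoters. The G and C content was 47.6% at Il21, 57.2% at Areg, 45.2% at Ifng, 40.4% at Il2, 37.6% at the outer and 52.8% at the inner Il4 promoter, 46.0% at Il17a, 55.2% at Csf2, 57.6% at Tnf and 75.2% at Tgfb1. Over all genes, a listed peak met 3.13% of the promoters with a G and C content up to 47.2%, 12.0% of those from there to 55.6%, 23.1% of those from 55.6% to 64.0% and 31.3% of those above. Ifng, Il2, Il17a and the outer Il4 promoter lay in the lowest of these classes, Il21, Csf2 and the inner Il4 promoter in the next, Areg and Tnf in the class from 55.6%, and Tgfb1 in the highest. The part of base composition in which members were listed was not tested.

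By gene name, 3 of the 10 members had a listed peak, 1 each at Ifng, Areg and Tgfb1, against 21.1% of all 21900 protein-coding genes. Il21, Il2, Il4, Il10, Il17a, Csf2 and Tnf had none. Counting any peak on the gene body or within 5 kb of it, whatever its name, 5 of 10 members were met, with Il21 and Tnf added, against 29.1% of protein-coding genes. Within 250 kb all 10 had at least 1, against 76.4%. With 10 genes, these shares are too coarse to be set apart from those of all genes.

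**Figure D1:**
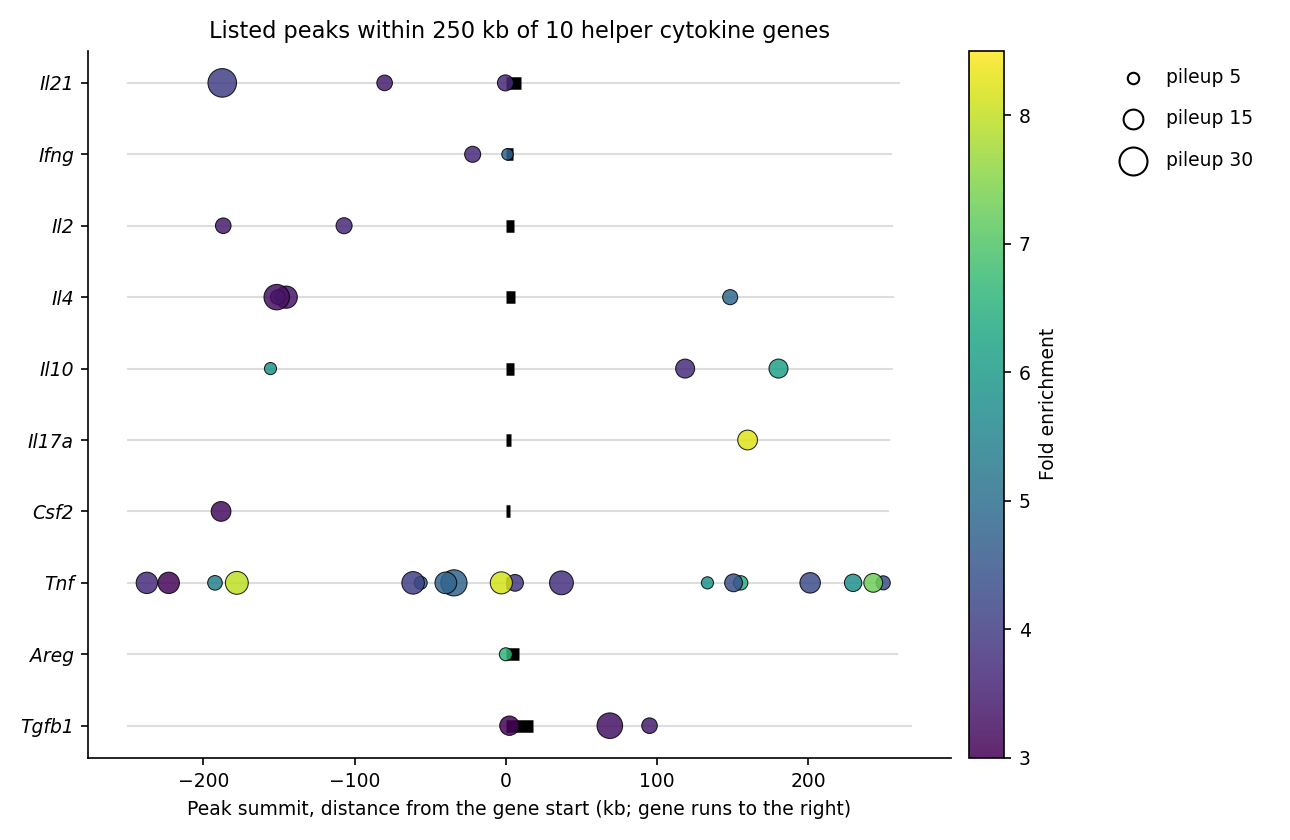
Summits of the 36 listed peaks (38 points, since 2 peaks are drawn at both Il21 and Il2) by distance in kb from the start of each of the 10 genes, with the gene body as a black bar running to the right and the window as a grey line. Point area is the pileup and colour the fold. Il10 is drawn along the chromosome from its lower coordinate. Peaks stood on or beside Il21, Ifng, Tnf, Areg and Tgfb1, and the nearest peak of the other 5 genes was 107 to 188 kb away.

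Il21 encodes the cytokine that drives germinal centre B cells and plasma cell formation. It runs on chromosome 3 from 37222759 to 37232636, and 3 listed peaks lay within 250 kb, all upstream of its start. The promoter peak (37232635 to 37232886) was 251 bp wide, against a median of 539 bp over the list. Its summit stood 239 bases before the Il21 start, 8 bases into Gm43822, a transcript on the opposite strand to which the list assigned it. With 35 anti-IFNAR1 and 2 control fragments, it had a pileup of 9.89 and a fold of 3.63, and 15.2% of listed peaks had a lower fold. Of the 678 listed peaks with 2 control fragments at the site, the fewest anti-IFNAR1 fragments were 32 and the median was 42, so Il21 was near the lowest count that was listed at this background. The next peak (37312737 to 37313713), with its summit 80.1 kb upstream, was assigned to Cetn4, a centrin gene. It overlapped the body of Bbs12, a Bardet-Biedl syndrome gene that runs the other way, with its summit 202 bases past the Bbs12 start. This peak held 33 against 2 fragments, with a fold of 3.44 (q = 0.0352). The highest pileup of the 3 was at the farthest, the peak at the shared start of Nudt6, a nudix hydrolase gene, and Spata5 (37419369 to 37420242), 187 kb upstream. This peak held 111 against 7 fragments, a pileup of 31.4 that exceeded 99.3% of listed peaks, and its fold was 4.05 (q = 4.26e-08), while its coverage ratio after scaling, 4.48, was the lowest of the 3, which their counting error does not separate. The high pileup at the Il21 locus was thus at the starts of other genes, and the Il21 promoter peak was below the list's median pileup of 11.6.

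Il2 encodes the T cell growth factor and lies on the far side of Il21 from these peaks (chromosome 3, 37120713 to 37125954). No listed peak lay on Il2 or between it and Il21. The 2 peaks within its window were the Il21 promoter peak, 107 kb from the Il2 body, and the Cetn4 peak, 187 kb away. Counts at Il2 therefore repeat those at Il21.

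Ifng encodes interferon gamma and runs on chromosome 10 from 118441046 to 118445894. Of its 2 peaks, that in intron 1 (118441873 to 118442379) had its summit 1.13 kb after the start. The counts there were 18 anti-IFNAR1 and 0 control fragments, a pileup of 5.09 and a fold of 4.74, and 7.62% of listed peaks had a lower pileup. After scaling for depth, the exact 95% lower bound of the coverage ratio was 1.24, and set against the 3 control fragments that a count of 0 allows, the ratio was 1.70. The upstream peak (118419114 to 118419355) stood 21.9 kb before the start in intergenic DNA. It held 35 against 2 fragments (q = 0.0352), the same counts as the Il21 promoter peak, as did 33 listed peaks in all. Neither Il22 nor Iltifb, the IL-22 genes that are the other coding genes within 250 kb of Ifng, had a peak by name or within 5 kb. Both peaks of this window thus lay nearer to Ifng than to another coding gene.

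Areg encodes amphiregulin, a growth factor of the EGF family linked to regulatory and type 2 T cells. Its single peak (chromosome 5, 91139320 to 91139832) had its summit 12 bases after the gene start and was the only listed peak within 250 kb. The 6 other coding genes share the window, among them the EGF family genes Ereg, Epgn and Btc and the chemokine genes Cxcl1 and Cxcl2, and none had a peak within 5 kb. The peak held 23 anti-IFNAR1 and 0 control fragments, a pileup of 6.50 and a fold of 6.63, and its background was the genome-wide rate of 0.132. The exact 95% lower bound of its coverage ratio was 1.62, and the ratio against 3 control fragments was 2.17. It had the highest fold of the peaks on a member gene, and 15.2% of listed peaks had a lower pileup.

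Tgfb1 encodes TGF-beta 1, a cytokine that restrains T cells and steers regulatory and Th17 fates. Its peak (chromosome 7, 25688016 to 25689685) did not reach the RefSeq start at 25687002. It was 1669 bp wide, the widest of the 36, with the summit 2.38 kb after that start. The list assigned it to a shorter Tgfb1 transcript that starts at 25688148. It held 51 against 4 fragments (q = 0.0163), a pileup of 14.4, and a fold of 3.08 that was the lowest of the 36. A peak at the start of Hnrnpul1, an RNA-binding protein gene, held 89 against 7 fragments (fold 3.27), and one in intron 2 of Axl, a receptor tyrosine kinase gene, 33 against 2 (fold 3.44). All 3 folds at the Tgfb1 locus were below the list's median of 4.74.

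Tnf encodes tumour necrosis factor and lies in the gene-dense MHC (chromosome 17, 35199367 to 35202007). Its promoter and body held no listed peak, and a peak stood 2.75 kb from its start side and another 3.14 kb from its end. The first (35204752 to 35205209) had its summit 2.96 kb upstream of the Tnf start, inside Lta, the lymphotoxin alpha gene, 607 bases past the Lta start. The list named it for Mir6974, a microRNA gene within Lta. It had 66 anti-IFNAR1 fragments against a background of 1.42, the average of the surrounding 1 kb, a pileup of 18.7 and a fold of 8.14, the second highest of the 36, and q = 4.60e-11. The second (35195544 to 35196226) lay at the end of Ltb, the lymphotoxin beta gene, with 38 against 2 fragments and a fold of 3.91. Ltb, Tnf and Lta lie within a few kb of each other without overlapping. The first peak lay within the body of Lta and the second within that of Ltb. Which of these genes either peak acts on cannot be told from position alone.

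A further 16 peaks lay within 250 kb of Tnf. Those at the heat shock genes Hspa1b (fold 7.28) and Hspa1a (5.78), at the MHC class I genes H2-Q4 (7.95), H2-D1 (4.09), H2-Q6 (3.09) and H2-Q7 (3.71), and at the pseudogene H2-Q5 (5.39) lie in families of near-identical copies. Reads that fit several copies could have been split among them, and these values are uncertain. The others included Nfkbil1, an NF-kB inhibitor-like gene that shares this peak with Atp6v1g2, with 93 fragments and a fold of 4.77, the RNA helicase gene Ddx39b (4.77), the mismatch repair family gene Msh5 (6.47) and Prrc2a (3.79). Vars (4.28), Clic1 (4.38), Ly6g6c (5.88), the transcript 1110038B12Rik (4.32) and an intergenic site (4.94) made up the rest.

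The window of Il4, the cytokine of IgE and type 2 responses (chromosome 11, 53612460 to 53618665), held 4 peaks, the nearest 142 kb away. None carried the names of Il5 or Il13, the type 2 cytokine genes beside it, or of Rad50, whose introns hold the known locus control region. Irf1, the gene of an interferon-induced transcription factor, had 2 peaks whose summits were 665 bases apart. The one with the higher pileup (53770037 to 53770446) held 88 against 7 fragments, a pileup of 24.9 above 95.4% of the list and a fold of 3.23, while the one before the gene (53768984 to 53769495) had the higher fold, 4.22, from 29 fragments over a 1 kb background of 1.18. Peaks named for Mir7671, with 67 against 5 fragments (fold 3.32), and Gm9837, with 31 against 1 (fold 4.88), made up the rest.

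No listed peak lay nearer than 113 kb to Il10, Il17a or Csf2. Around Il10, the gene of an inhibitory cytokine (chromosome 1, 131019845 to 131024970), the nearest was at Dyrk3, a kinase gene 113 kb away, with 49 against 3 fragments and a fold of 3.71. A peak of Rassf5, a Ras effector gene that acts in T cell adhesion, 175 kb away, had the same 49 fragments over a 1 kb background of 1.42 and a fold of 6.15. An intergenic peak 155 kb on the other side, 1275 bp from the Fc receptor gene Fcmr, had 20 fragments over the genome-wide rate (fold 5.88). The IL-10 family genes Il19, Il20 and Il24 in this window had none by name or within 5 kb. Around Il17a, the Th17 cytokine gene (chromosome 1, 20730905 to 20734496), the single peak was 156 kb away. It was assigned to the long noncoding RNA 6720483E21Rik and covered the start of Paqr8, a membrane receptor gene, with 53 fragments, 0 control fragments at the site and the highest fold of the 36, 8.22. Around Csf2, which encodes GM-CSF (chromosome 11, 54247270 to 54249899), the single peak was at the start of Fnip1, a folliculin-interacting protein gene 188 kb away, with 53 against 4 fragments, a pileup of 15.0 and a coverage ratio of 3.75 after scaling. Il3, beside Csf2, had none.

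Set side by side, Il21 had 3 peaks and Ifng 2, within the range of 1 to 18 of the other 8 loci, whose median was 2.5. The order depended on the window: within 100 kb Il21 and Ifng had 2 each and the others a median of 0. The median over all protein-coding genes was 2 (quartiles 1 and 5). Fewer peaks than at Il21 were counted around 52.9% of these genes, fewer than at Ifng around 39.5%, and fewer than at Tnf around 99.8%. The windows differ in the number of coding genes they hold, 3 around Ifng, 9 around Il21, 39 around Tnf and 6 to 15 around the others. Per coding gene, Ifng had 0.667 peaks, the most of the 10, Tnf 0.462, Il21 0.333, Il2 and Il4 0.286 each and the others 0.125 to 0.250. The ratio over the windows of all coding genes was 0.255. Each of these rests on few peaks, and loci are not replicates, so no test was made.

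**Figure D2:**
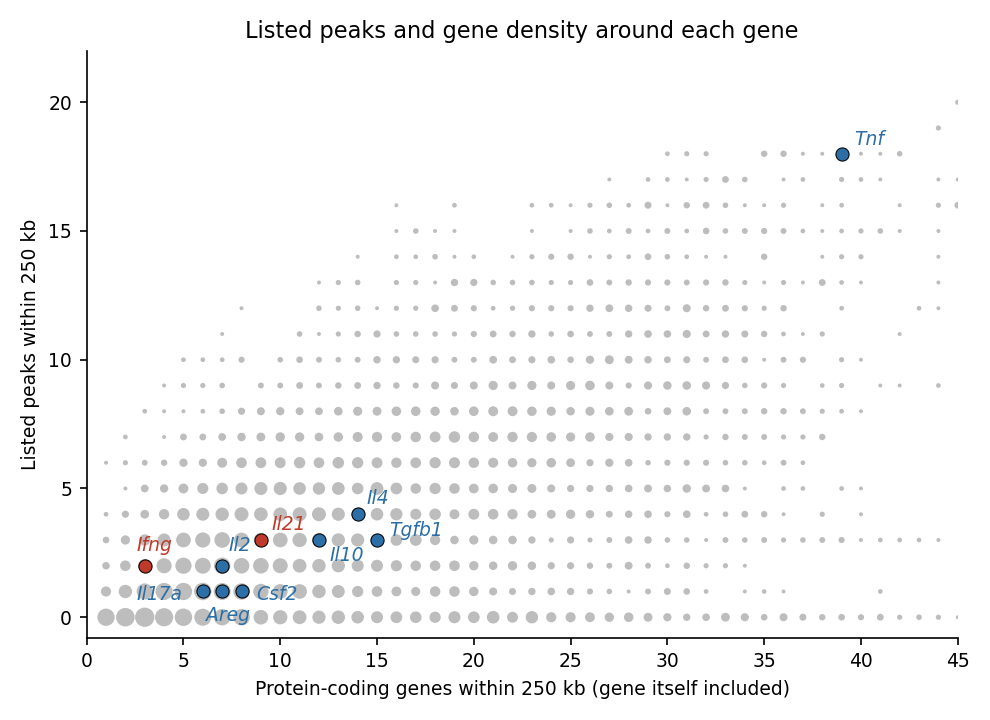
Listed peaks within 250 kb against protein-coding genes within 250 kb. Grey points are all protein-coding genes in windows of up to 45 genes, with larger points for more genes, red points are Il21 and Ifng and blue points the other 8 members. All 10 members lie within the spread of genes with similar surroundings, with Tnf at 39 genes and 18 peaks and Ifng at 3 genes and 2 peaks.

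The median pileup and fold around Il21 and Ifng were lower than around the other cytokines, with overlapping ranges. Unlike in the counts above, the 2 peaks that Il21 shares with Il2 were taken with Il21 only. They are the only peaks of the Il2 window, so the other 31 hold none of Il2. The 5 peaks had pileups of 9.89, 9.33, 31.4, 9.89 and 5.09, a median of 9.89, against a median of 13.8 for the other 31 peaks (range 5.65 to 26.3) and 11.6 over the list. Their folds of 3.63, 3.44, 4.05, 3.63 and 4.74 had a median of 3.63, against 4.38 for the other 31 (range 3.08 to 8.22) and 4.74 over the list. Of the 5, only the Ifng intron peak exceeded the list's median fold, and it stood in effect at that median (4.745 against 4.74). Of the 31, 15 exceeded it, and the folds of the 5 lay within the range of the 31. At a q of 0.01, 2 of the 5 (Nudt6 and the Ifng intron) and 27 of the 31 were left, against 82.4% of the list. Of the 36 peaks, 18 belong to the Tnf locus, and without it the other 13 peaks had a median fold of 3.71 and a median pileup of 13.8. With the 2 shared peaks counted at Il2 as well, this median fold would not stay above that around Il21 and Ifng. The 18 Tnf peaks had a median fold of 4.77. Over all 36, the median fold was 4.30, with 16 above the median of the list and 20 below, and 28 (77.8%) were placed at a transcription start against 72.4% of the list.

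**Figure D3:**
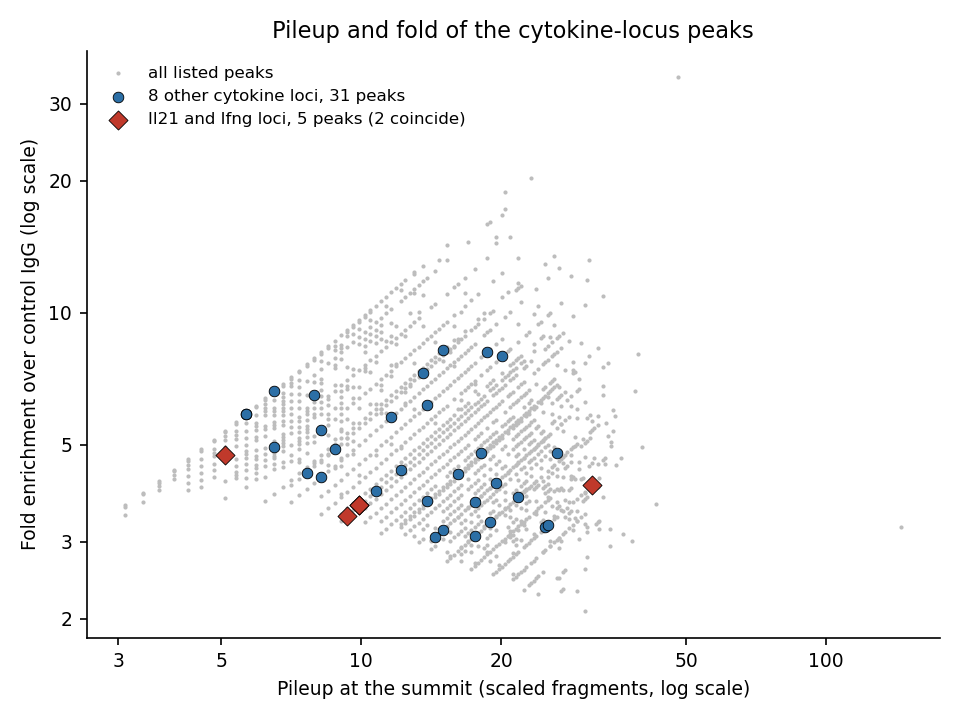
Fold against pileup, both on log axes, for all listed peaks (grey), the other 31 peaks (blue) and the 5 peaks of Il21 and Ifng (red, 2 of them at the same values). Both peaks of the Il2 window are shared with Il21 and are drawn in red only, so no blue point is from Il2. Of the red points, 3 stand at folds of 3.44 to 3.63 and pileups below 10, Nudt6 at the highest pileup of the 36 and the Ifng intron at the lowest.

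The control side was shallow at these sites, which limits how well each gain is known. Scaling was for depth only, and other differences between the 2 pooled sides were not tested. For 21 of the 36 peaks the background was the control coverage at the summit itself, with 1 to 7 fragments, and the ratio of coverage scaled for depth had a median of 4.66 (highest 13.6). It was 4.95 at the Il21 promoter (exact 95% interval 1.27 to 42.5) and the same at the upstream Ifng peak, 4.66 at Cetn4 (1.19 to 40.1) and 4.48 at Nudt6 (2.105 to 11.4). At Tgfb1 it was 3.60 (1.32 to 13.7) and at the Irf1 peak with 88 fragments 3.55 (1.65 to 9.10). The highest, 13.6 at Hspa1b, rested on 1 control fragment (2.32 to 547). The upper bound was more than 10 times the lower for 15 of the 21, so the order of these peaks by size of gain could not be read at this depth. A further 8 peaks, those of Areg and the Ifng intron among them, had 0 control fragments at the site, and their ratios have no upper bound. Their exact 95% lower bounds ran from 1.24 to 3.92, and their ratios against 3 control fragments, which leave out the counting error of the anti-IFNAR1 side, from 1.70 to 4.99. The other 7 took their background from the surrounding 1 kb, so their ratios set the summit against a local average. Intervals and bounds cover counting error only, PCR copies are not independent molecules, and since peaks were listed for their high coverage over the control, all of these ratios are tilted upwards.

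**Figure D4:**
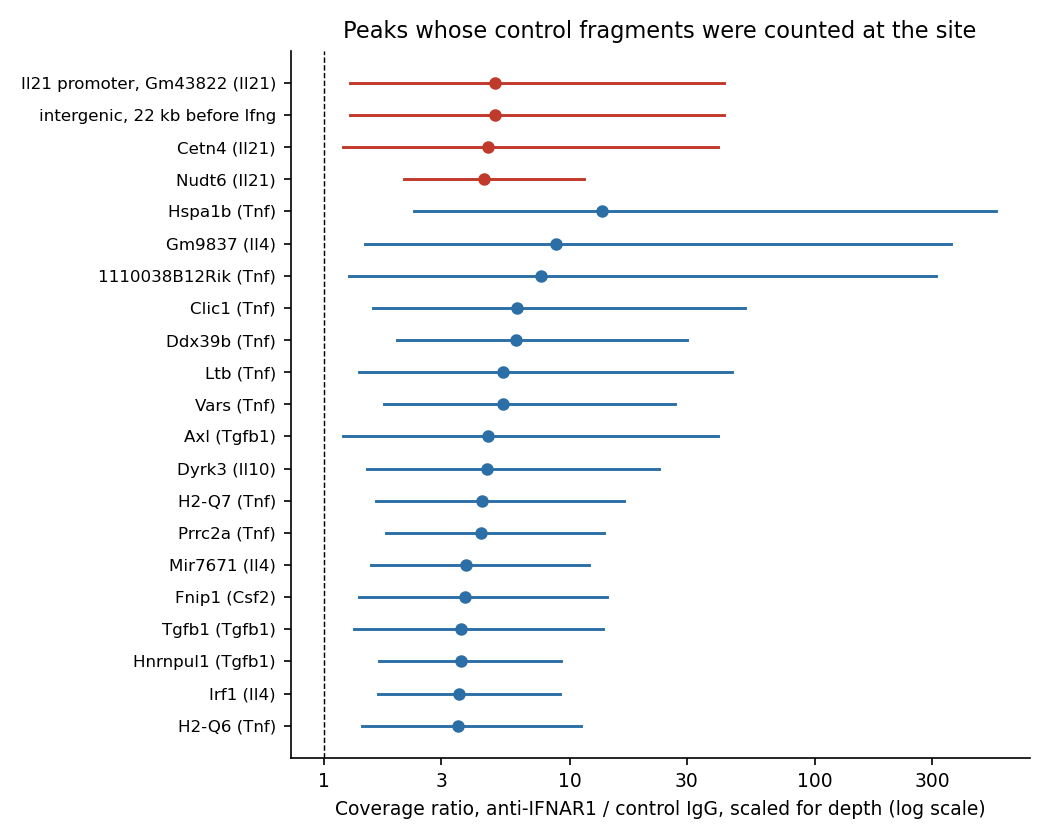
Ratio of anti-IFNAR1 to control IgG coverage, scaled for depth and on a log axis, at the 21 peaks whose control fragments were counted at the site, with exact 95% intervals as lines. Red marks the Il21 and Ifng loci and blue the others, each named by its assigned gene and, in brackets, its locus. The red intervals overlap those of all the others.

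Ligand, receptor and regulator genes of the helper cytokines were counted in the same way. The lists were chosen with earlier results of these data known, so their shares describe the lists and were not tested. Of 30 other helper cytokines and surface ligands, 5 (16.7%) had a peak by name, against 21.1% of protein-coding genes. They were Tnfsf8, the CD30 ligand gene (fold 8.55), Tgfb3, which encodes TGF-beta 3 (7.93), Tnfsf11, which encodes RANKL (5.71), Mif, which encodes macrophage migration inhibitory factor (4.16), and Ltb (3.91). The 25 without were Il3, Il5, Il6, Il9, Il13, Il16, Il17f, Il22, Il24, Il19, Il20, Il27, Ebi3, Il12a, Lta, Lif, Osm, Tgfb2, Xcl1, Ccl3, Ccl4, Ccl5, Fasl, Cd40lg and Tnfsf14. Of these, Il16 and Lta had a peak within 5 kb that did not carry their name. Cd40lg, which encodes the contact signal of Tfh cells to B cells, had no peak by name or within 5 kb.

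Of 18 receptor genes of the 10 cytokines, 11 (61.1%) had a peak by name, against 21.1% of protein-coding genes, with a median highest fold of 4.11. On the promoter window, 4 of the 18 had a listed peak, against 18.7% of protein-coding genes with such a window. Some of the 18 may lack a tabulated window, and the promoter count does not set the receptors apart. The IL-10 receptor had both chains listed, Il10rb with a fold of 8.86 and Il10ra with 5.16, although Il10 itself had none. The TGF-beta receptor had both as well, Tgfbr2 with 6.56 and Tgfbr1 with 3.92. Tnfrsf1b, which encodes TNF receptor 2, had 7.87, and Tnfrsf1a, which encodes TNF receptor 1, had none. Il21r had a fold of 4.09 with 28 fragments (q = 0.0261), while the interferon gamma receptor genes Ifngr1 and Ifngr2 had none. Of the IL-2 receptor, Il2ra (4.13) and Il2rb (3.29) were listed and the shared chain gene Il2rg was not. Il2ra rested on 13 fragments over the genome-wide rate, at which the fewest listed were 11, and Il2rb on 43 against 3. Il4ra (3.35, q = 0.0352), Il17ra (4.11) and Csf2ra (4.07) were also listed. Il17rc, Csf2rb and Egfr were not, although Il17rc had a peak within 5 kb that did not carry its name.

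Of 22 transcription factor genes that act on helper cytokine genes, 18 (81.8%) had a peak by name, against 21.1% of protein-coding genes. Some genes of this list were left out after its counts were seen, so this share is no support for a difference from all genes. On the promoter window, 7 of the 22 had a listed peak, against 18.7% of protein-coding genes with such a window. Some of the 22 may lack a tabulated window. The highest folds were 6.56 at Bhlhe40, a regulator of cytokine production, 6.31 at the AP-1 gene Fosl2, 6.20 at Stat6, which acts downstream of IL-4, 6.04 at Bcl6, the master factor of Tfh cells, and 5.53 at Rora, which encodes a nuclear receptor. The 4 without were Tbx21, which encodes the Th1 factor T-bet, Eomes, Prdm1 and Ikzf3. Of these, Eomes and Ikzf3 had a peak within 5 kb of the gene body that did not carry their name. The share of promoters at which a peak is listed varies with base composition, and these lists were not tested against other genes.

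**Figure D5:**
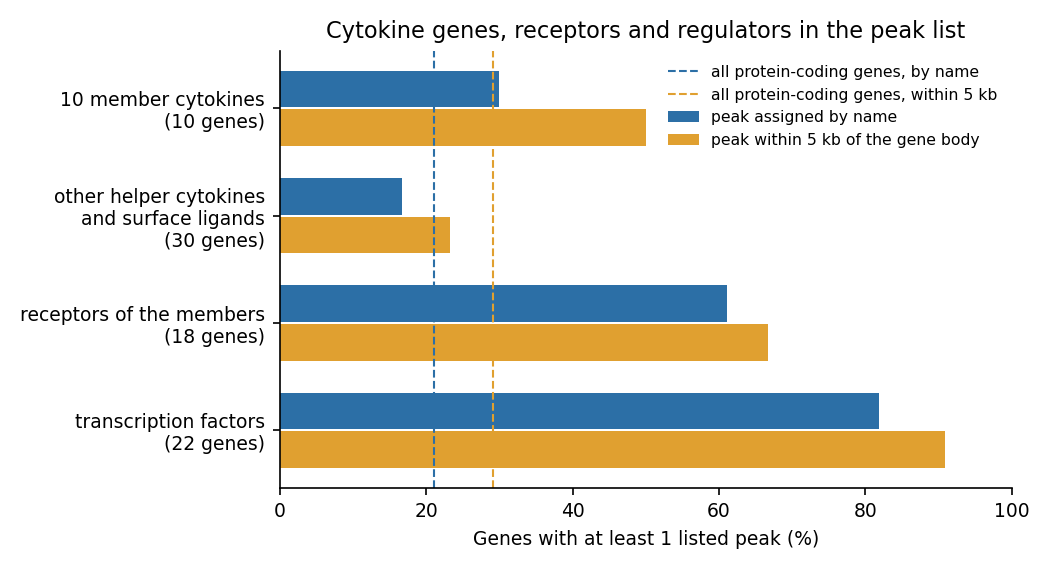
Percentage of genes with at least 1 listed peak, by name (blue) and within 5 kb of the gene body (orange), in the 10 cytokine genes and 3 further lists, with dashed lines for all protein-coding genes (21.1% and 29.1%). The bars of the receptors and transcription factors reach past both lines, and those of the 30 other cytokines and ligands, at 16.7% and 23.3%, do not. The lists were chosen with earlier results of these data known, and some transcription factor genes were left out after the counts were seen. The bars therefore describe the lists only.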

How the data were processed

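The data were ATAC-seq libraries of 7 samples, 4 anti-IFNAR1 and 3 control IgG, grouped by treatment label. The build mm10 and the tools DESeq2, bedtools, DiffBind 2.0.7, MACS2 2.1.0.20150420 and BWA 0.7.9a stand in the submitters' processing notes, with no role or order. How cut sites were shifted and duplicates treated is not stated. The authors deposited the peak list used here, which has no values per sample. Per the file headers it gives the pileup signal and the fold. Under 2 damaged headers the authors deposited −log10 values, taken to be those of p and then of q from their order. The direction was read from peak names, and the libraries pooled on each side are not named. Positions are as deposited, and the list's length is end minus start, so starts may be off by 1 base.

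Each pileup was a whole multiple of 0.283 (largest remainder 0.00497), so fragments could be counted, at a depth ratio of 3.54. Solving the fold for its denominator gave the control background. Backgrounds that were whole numbers were taken as counted at the site. Gene positions came from RefSeq (GRCm38.p6), and gene names of 5148 peaks matched a protein-coding gene. Il10 is placed by its gene body. Intervals are exact conditional binomial (Clopper-Pearson, SciPy 1.17.1). Recovery of fragments and intervals was tested on simulated data. Motifs were set against promoters, not peaks, for want of peak sequence. No test across samples was possible, and no list was tested for enrichment. The text names every peak of the 10 loci, and in each further list the 5 genes with the highest fold and those without a peak; other genes were named after their values were seen. Some genes of the transcription factor list are not reported here and were left out of its counts after those were seen. Members, lists and motifs were chosen with earlier results of these data known. Alternatives were windows of 100 kb and 500 kb, summits in place of any overlap, a q of 0.01, a pileup of at least 10 and, chosen after seeing the data, leaving out the Tnf locus.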

Additional observations from a re-analysis of the deposited data

How the results depend on the processing

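No paired analysis was possible because the deposited list has no value per sample. With a window of 100 kb the 10 loci held 15 peaks in place of 36, the other 8 loci a median of 0 and a median fold of 4.09, while Il21 and Ifng kept 2 each. With 500 kb they held 56, with 7 at Il21, 4 at Ifng and a median of 5 at the others, and median folds of 3.88 (Il21 and Ifng) and 4.77 (others). At a q of 0.01 Il21, Ifng and the median of the others had 1 each, with median folds of 4.40 and 4.77. With a pileup of at least 10, 22 peaks were left, 1 at Il21, 0 at Ifng and a median of 1.5 at the others, with folds of 4.05 (Il21 alone) and 4.09. Under both of these settings the peak left at Il21 was that of Nudt6, 187 kb away, and not the promoter peak. Without the Tnf locus, 18 peaks were left and the other loci had a median fold of 3.71. The median fold around Il21 and Ifng was below that of the others under each of these settings, by little without Tnf or at a pileup of 10. Without Tnf it was below only because the 2 peaks shared by Il21 and Il2 (folds 3.63 and 3.44) were left out of the others. Counting peaks within 5 kb gave 5 members in place of 3. The median coverage ratio was 5.37 with the background of the caller over 33 peaks and 4.95 with the most control fragments each site could hold, over the 28 where these were not 0. As the list has no value per sample, no replicate could be left out. Shares of loci rest on 10 genes, and control counts of 0 to 7 fragments limit every ratio.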
